A study of Mus musculus with 7 samples.

Results

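Among the RNAs that take up the most reads when total RNA of a tissue is sequenced are noncoding RNAs of the nucleus and of the RNA-processing machines. Here 10 listed RNAs, Gm26917, Gm42418, Malat1, Neat1, Miat, Snhg11, Kcnq1ot1, Rmrp, Rpph1 and Rn7sk, were followed in pancreatic islets of mice aged 7 days. They were chosen by name from a list of abundant noncoding RNAs, selected on the levels seen in these same libraries, and each name matched 1 of the 49315 mouse genes in the count files. A high level among them is therefore a description and carries no test, and Snhg11 and Miat were not abundant by counts. The recorded rule names no difference between genotypes. The series held 4 pools from mice with a β-cell specific deletion of Nrf2 (βNrf2KO, pools 1, 2, 3 and 4) and 3 pools from Nrf2lox/lox mice (control, pools 1, 2 and 4). Each pool combined RNA of 5 animals, so the p-values measure the spread between pools. The cells in which Cre acts are given only as β-cells, and the promoter that drives it, the strain and the sex are not given in the sources used here. Islets are a mixed tissue in which many cells are not β-cells, and in bulk RNA fewer cells of a type and less RNA per cell cannot be told apart.

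The members fall into 3 classes. Gm26917 and Gm42418 lie side by side in a copy of ribosomal DNA, the repeated gene whose long precursor is cut into the RNAs of the ribosome. Malat1, Neat1, Miat, Snhg11 and Kcnq1ot1 are long RNAs made by RNA polymerase II and are known mainly from the nucleus. Malat1 gathers in nuclear speckles, which hold splicing factors, and Neat1 is the scaffold of paraspeckles. Rmrp, Rpph1 and Rn7sk are short, stable RNAs made by RNA polymerase III. Rmrp is the RNA of RNase MRP, which takes part in cutting the ribosomal precursor, Rpph1 is the catalytic RNA of RNase P, which trims the 5′ ends of transfer RNAs, and Rn7sk holds the elongation factor P-TEFb inactive.

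The sequences are shown where they bear on what the counts can and cannot tell. They are GENCODE M21 transcript sequences, 5′ to 3′, in the GRCm38 build of the count files. Of Gm42418 (ENSMUSG00000098178, chromosome 17, 39846958 to 39848788, plus strand, a single exon of 1831 bases) the first 200 bases are given (chr17:39846958-39847157), and of Gm26917 (ENSMUSG00000097971, 39843013 to 39846341 on the same strand, 3329 bases) the last 120 (chr17:39846222-39846341).
Gm42418: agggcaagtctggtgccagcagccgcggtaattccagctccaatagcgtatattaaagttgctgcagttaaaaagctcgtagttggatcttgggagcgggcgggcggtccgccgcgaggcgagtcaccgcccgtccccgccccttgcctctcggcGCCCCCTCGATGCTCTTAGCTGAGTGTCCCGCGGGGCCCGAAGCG
Gm26917: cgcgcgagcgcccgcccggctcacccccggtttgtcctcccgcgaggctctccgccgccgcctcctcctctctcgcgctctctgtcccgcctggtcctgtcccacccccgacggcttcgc
RefSeq (GRCm38.p6) lists Gm42418 as a synonym of Rn18s-rs5, a pseudogene related to 18S ribosomal RNA at 39846354 to 39848202. Gm26917 ends 12 bases before Rn18s-rs5 begins. Gm42418 begins inside it, with 1245 bases within Rn18s-rs5 and 586 bases after its end. The capitals mark bases that also belong to AY036118, a row on the other strand. AY036118 covers 923 bases, all inside both Gm42418 and Rn18s-rs5, and had 0 counts in each of the 7 pools, while Gm42418 had 19262 to 48799. Whether reads were assigned by strand is not given in the sources used here. If they were not, reads within those 923 bases could not be assigned to either row, and the Gm42418 counts would come from the other 908 bases.

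Rmrp has the same limit. It (ENSMUSG00000088088) lies on chromosome 4 (chr4:43492788-43493058, minus strand, 271 bases), and the capitals mark 124 bases that lie in an exon of the protein-coding gene Ccdc107 on the other strand.
Rmrp: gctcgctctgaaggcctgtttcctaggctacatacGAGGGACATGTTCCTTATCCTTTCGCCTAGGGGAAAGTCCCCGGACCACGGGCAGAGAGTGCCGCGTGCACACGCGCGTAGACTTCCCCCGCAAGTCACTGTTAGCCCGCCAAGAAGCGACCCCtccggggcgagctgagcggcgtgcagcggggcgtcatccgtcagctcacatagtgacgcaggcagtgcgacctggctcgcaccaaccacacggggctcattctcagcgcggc
Ccdc107 had 42 to 113 counts per pool, against 8734 to 31003 for Rmrp. On the other strand of Miat, Gm26953 shares 2260 bases and had 0 to 4 counts. Smaller annotated rows inside the exons of Malat1, Neat1, Miat, Snhg11 and Kcnq1ot1 had 0 counts in all pools.

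Rn7sk (ENSMUSG00000065037, chromosome 9, 78175303 to 78175633, minus strand, 331 bases) is shown by its first 120 bases (chr9:78175514-78175633). The capitals mark GATC, the repeated letters of the 5′ hairpin that binds the P-TEFb inhibitor HEXIM1, which occur 3 times in the whole RNA.
Rn7sk: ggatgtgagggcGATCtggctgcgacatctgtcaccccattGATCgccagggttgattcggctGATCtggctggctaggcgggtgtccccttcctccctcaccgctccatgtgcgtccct
Rpph1 (ENSMUSG00000092837, chromosome 14, 50807449 to 50807767, minus strand, 319 bases) is shown by its first 120 bases (chr14:50807648-50807767), because it varied most between pools.
Rpph1: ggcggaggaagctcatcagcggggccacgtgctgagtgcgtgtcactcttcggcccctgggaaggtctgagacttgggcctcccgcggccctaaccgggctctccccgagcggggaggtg
Rpph1 stands head to head with Parp2, a DNA repair gene that begins 178 bases away.

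Malat1 (ENSMUSG00000092341, chr19:5795690-5802672) and Neat1 (ENSMUSG00000092274, chr19:5824708-5845478) lie on the minus strand, each a single exon, and share a way of ending. The 3′ ends of Malat1 and of the long form of Neat1 fold into a triple helix in place of a poly(A) tail. U-rich motifs and an A-rich tract form this helix, and RNase P, whose RNA is Rpph1, cuts at these ends. The capitals mark these motifs in Malat1 (chr19:5795921-5796073, positions 6600 to 6752 of 6983) and at the very end of Neat1 (chr19:5824708-5824803, positions 20676 to 20771).
Malat1: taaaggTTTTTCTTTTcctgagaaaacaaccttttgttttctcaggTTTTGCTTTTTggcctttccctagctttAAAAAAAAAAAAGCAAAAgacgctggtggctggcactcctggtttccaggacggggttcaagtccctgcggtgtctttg
Neat1: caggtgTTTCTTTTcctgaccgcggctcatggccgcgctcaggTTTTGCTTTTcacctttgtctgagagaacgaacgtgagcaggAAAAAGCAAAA
In both, 2 U-rich motifs, each a run of T, then C or GC, then a run of T, stood before 1 A-rich tract. The Malat1 row goes on past the cut, through the small tRNA-like RNA that the cut releases. The Neat1 row (20771 bases) covers the short and the long form together, so the counts do not tell these forms apart.

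The libraries differed in ways that touch every value below. Total counts were 18187382 to 20847474 in the βNrf2KO pools and 21603654 to 25373105 in the control pools. Genes of the mitochondrial genome held 27.7%, 22.4%, 20.7% and 10.02% of counts in βNrf2KO pools 1, 2, 3 and 4, and 43.0%, 51.8% and 14.6% in control pools 1, 2 and 4. Control pools 1 and 2 thus stood apart, and the scaling factors of the trimmed mean of M-values (TMM), which correct for such differences in composition, ran from 1.03 to 1.31 in the βNrf2KO pools and were 0.816, 0.625 and 1.19 in control pools 1, 2 and 4. All 8 β-cell markers had counts in every pool. Their summed level was 42752, 36471, 49436 and 45296 CPM (counts scaled to a library total of 1e6) in the βNrf2KO pools and 21591, 10218 and 55517 CPM in the control pools, lowest where the mitochondrial share was highest. Markers of other cell types varied between pools, with overlapping ranges in every list. Summed alpha-cell markers (5 of 5 counted in all pools) varied most, at 5356 to 20652 CPM in βNrf2KO pools and 2911 to 16749 CPM in control pools (exact permutation p = 0.286). Summed endothelial markers (5 of 5 counted in all pools) were at 1025 to 1444 CPM in βNrf2KO pools and 556 to 1030 CPM in control pools, and duct markers (5 of 5) at 151 to 200.6 CPM in βNrf2KO pools and 54.4 to 153 CPM in control pools (exact permutation p = 0.114 each). Acinar markers (11 of 13 counted in all pools, 1 at 0) were at 65.0 to 254 CPM in βNrf2KO pools and 69.0 to 336 CPM in control pools (exact permutation p = 0.629). Fibroblast and pericyte markers (8 of 8) were at 1058, 1806, 1073 and 1334 CPM in βNrf2KO pools and 1819, 1693 and 1224 CPM in control pools (exact permutation p = 0.343). The mean sums of delta-cell and PP-cell markers in βNrf2KO were 1.03 and 1.31 times those in control (exact permutation p = 0.971 and 0.686). The means of leukocyte, erythroid and neuronal marker sums in βNrf2KO were 1.00, 1.04 and 0.9995 times those in control. All these marker sums are in CPM of total counts, where the median log2 fold change over all tested genes was 0.37. These ratios thus lay below that of the median gene, and the sums were not computed on other scales. The part of cell makeup in the results below was not tested. The Cre recombinase sequence had 24, 23, 46 and 73 counts in βNrf2KO pools and 0 in each control pool. Cre and the deletion of Nrf2 thus divide the pools in the same way, and their effects cannot be told apart. Nfe2l2, the gene of Nrf2, differed by 0.08 ± 0.23 (SE) on the log2 scale (edgeR quasi-likelihood test, adjusted p = 0.911), and counts over a whole gene do not check a deletion of part of it.

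Together the 10 RNAs took 7.45%, 5.91%, 4.60% and 4.72% of counts in βNrf2KO pools 1, 2, 3 and 4, and 6.54%, 7.81% and 6.82% in control pools 1, 2 and 4. The means were 5.67% ± 1.33 (SD, n = 4) in βNrf2KO and 7.06% ± 0.665 (SD, n = 3) in control, a difference of -1.39 percentage points. The direction depended on the scale, since the difference was -4.65 as a share of counts outside the mitochondrial genome and 0.124 as a share of TPM (exact permutation p = 0.114 and 0.914). As shares of all counts the groups overlapped, since βNrf2KO pool 1 lay above control pools 1 and 4 (exact two-sided permutation p = 0.171, where the smallest value this design allows is 0.0571). Most of the sum was Gm26917 and Gm42418, which took 4.89%, 4.03%, 3.24% and 2.88% in βNrf2KO pools and 4.14%, 6.05% and 5.13% in control pools (exact permutation p = 0.114). Without this pair of rows the sum was 1.91% ± 0.496 (SD, n = 4) in βNrf2KO and 1.95% ± 0.396 (SD, n = 3) in control (exact permutation p = 0.971). The 5 long nuclear RNAs held 1.11% ± 0.189 in βNrf2KO and 1.03% ± 0.101 in control (SD, n = 4 and 3), and the 3 RNAs of polymerase III 0.799% ± 0.328 in βNrf2KO and 0.914% ± 0.353 in control. In both classes the groups overlapped (exact permutation p = 0.571 each). Between pools of the same number, the sum without Gm26917 and Gm42418 was higher in βNrf2KO by 0.159, 0.128 and 0.153 percentage points in pairs 1, 2 and 4, and the long nuclear class by 0.210, 0.153 and 0.111, as shares of all counts. As shares of counts outside the mitochondrial genome, both were lower in βNrf2KO in pairs 1 and 2 and higher in pair 4. These paired differences were not tested.

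**Figure D1:**
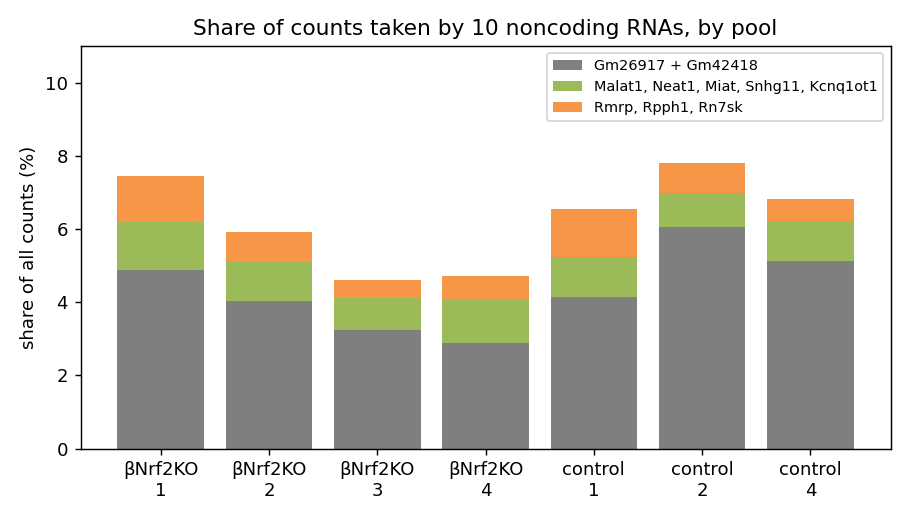
Share of all counts (percent) taken by the 10 noncoding RNAs in each of 7 pools, stacked by class. The full bars run from 4.60% (βNrf2KO pool 3) to 7.81% (control pool 2), and the grey part, Gm26917 and Gm42418, is the largest in every pool.

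Level per exon length, in TPM (counts per base of exon, scaled to the same total of 1e6), spread over more than 4 orders of magnitude, so the members are not all abundant. Averaged over the 7 pools, Rn7sk stood at 34464 ± 11363 TPM (SD, n = 7), Gm26917 at 27248 ± 5511, Rpph1 at 16119 ± 7286, Rmrp at 5579 ± 1947, Malat1 at 3148 ± 789 and Gm42418 at 1460 ± 609. By mean TPM these 6 ranked between 8 and 28 of all genes. Neighbours in this order overlapped in range. Rn7sk was above Gm26917 in 4 of 7 pools and Gm26917 above Rpph1 in 6, whereas each later step kept its order in all 7. These levels use the full exon length. If bases shared with the other strand were not counted, the levels of Gm42418 and Rmrp are too low. Whether the steps next to these 2 RNAs would then keep their order was not computed. Neat1 (49.1 ± 23.1 TPM) lay below Gm42418 with no overlap, and Kcnq1ot1 (11.1 ± 4.18 TPM) below Neat1 with none. Kcnq1ot1 and Snhg11 (6.03 ± 2.69 TPM) overlapped. Miat (1.28 ± 0.588 TPM) lay lowest, with 71 to 196 counts per pool. By CPM, Snhg11 ranked 5921 and Miat 11306 of all genes, which goes against calling these 2 RNAs abundant. Snhg11, a host gene of small nucleolar RNAs, also has the type of a protein-coding gene in GENCODE M21.

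**Figure D2:**
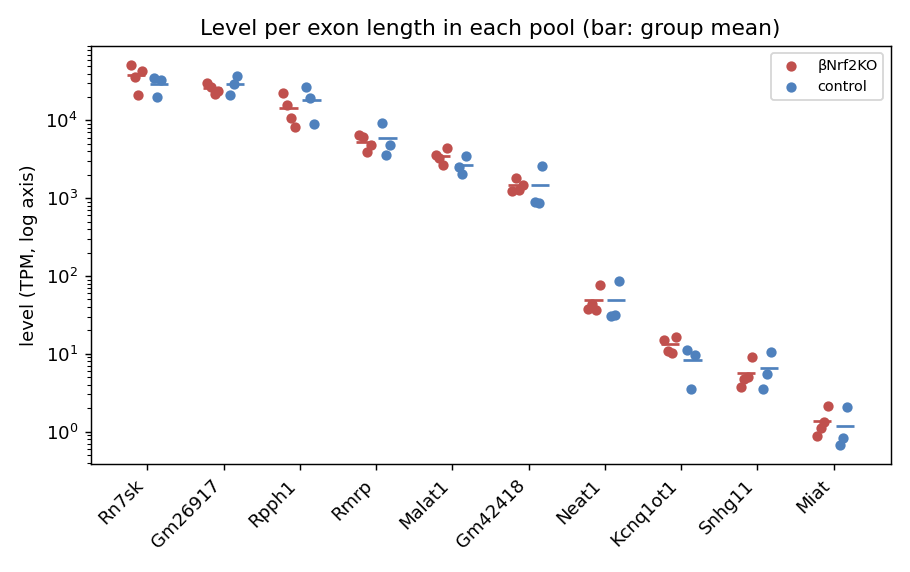
Level in TPM on a log axis for each RNA in the 4 βNrf2KO pools (left of each pair) and the 3 control pools (right), with the group mean as a bar. The order runs from Rn7sk, at 19994 to 51588 TPM, to Miat, at 0.674 to 2.10 TPM.

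The share of a gene type's counts that the members held differed between types. Of the counts in 4151 genes of GENCODE's lincRNA type, the 5 members of that type (Gm26917, Gm42418, Malat1, Neat1 and Miat) together held between 84.6% and 94.6% per pool, and Gm26917 and Malat1 had the highest counts of that type. Rpph1 and Rmrp held 99.9% or more of the counts of 22 ribozyme genes. Rn7sk held 96.6% to 98.1% of those of 562 genes of the misc_RNA type. Kcnq1ot1 held only 8.81% to 16.2% of those of 2509 antisense genes. The share of Snhg11 among protein-coding genes was not computed.

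The comparison of βNrf2KO with control islets addresses by which means Nrf2 acts on the proliferation of neonatal β-cells, as the series states its aim. For the members it gave no call. By edgeR's quasi-likelihood test, with TMM scaling and Benjamini-Hochberg adjustment over 19893 tested genes, 0 members passed an adjusted p of 0.05, against 0% of all tested genes, and the smallest adjusted p of a member was 0.571. DESeq2 called 2 genes (0.0101% of those tested), 0 of them members, and had 5 members at an unadjusted p under 0.05, against 9.55% of all tested genes. In limma-voom, which called 0 genes, 4 members had an unadjusted p under 0.05, against 7.85% of all tested genes. All 10 members passed the filter on low counts. In the edgeR fit 4 members had an unadjusted p under 0.05, Snhg11, Neat1, Gm42418 and Gm26917, all lower in βNrf2KO, against 8.46% of all tested genes. Of the 10 members, 9 had negative and 1 had positive log2 fold changes, with a median of -0.59, against -0.01 over all tested genes. Scaled to total counts in place of TMM, 7 were negative and 3 positive, with a median of -0.22 against 0.37 over all tested genes, and 0 members had an unadjusted p under 0.05, against 7.43% of all tested genes. The labels number the pools, and with that number as a replicate block edgeR called 14 genes (0.0704% of those tested), 0 of them members, with 6 members at an unadjusted p under 0.05 against 12.1% of all tested genes.

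Snhg11 (ENSMUSG00000044349, chr2:158375638-158386145, plus strand, 4 exon blocks) had the smallest p of the members. Its TMM-scaled level was 3.92, 3.97, 4.07 and 4.38 log2 CPM in βNrf2KO pools 1, 2, 3 and 4, and 4.41, 5.50 and 4.93 in control pools 1, 2 and 4. Every βNrf2KO pool lay below every control pool, by a margin of hundredths between βNrf2KO pool 4 and control pool 1. The log2 fold change was -0.92 ± 0.24 (SE; edgeR, unadjusted p = 0.00253, adjusted p = 0.571) and -0.61 without control pool 2. The raw counts behind it were 282 to 563 in βNrf2KO and 374 to 917 in control pools. In CPM of total counts the groups overlapped, at 15.5 to 27.0 CPM in βNrf2KO pools and 17.3 to 36.1 CPM in control pools.

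Neat1 was the other member whose groups did not overlap. Its level was 8.50, 8.46, 8.19 and 8.77 log2 CPM in βNrf2KO pools 1, 2, 3 and 4, and 8.77, 9.33 and 9.24 in control pools 1, 2 and 4. The nearest pools, βNrf2KO pool 4 and control pool 1, differed only beyond these decimals. The log2 fold change was -0.64 ± 0.19 (SE; edgeR, unadjusted p = 0.00545, adjusted p = 0.571), over -0.79 to -0.54 when each pool was left out. All βNrf2KO pools lay below all control pools for 2 of 10 members and for 3.80% of all tested genes. In CPM of total counts Neat1 overlapped, at 372, 393, 320 and 570 CPM in βNrf2KO pools and 357, 403 and 719 CPM in control pools.

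**Figure D3:**
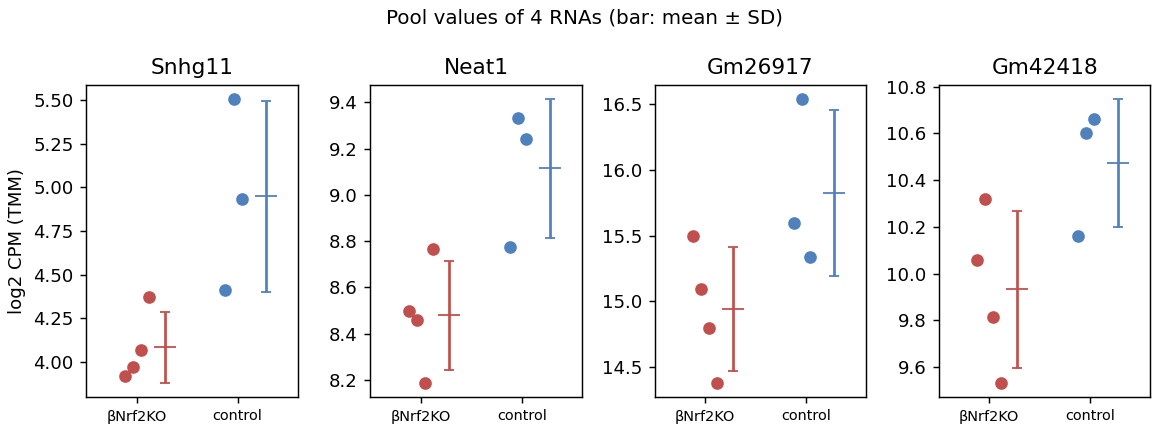
TMM-scaled log2 CPM of Snhg11, Neat1, Gm26917 and Gm42418, the 4 RNAs with an unadjusted p under 0.05, in the 4 βNrf2KO pools and the 3 control pools, with group mean ± SD beside the points. Snhg11 and Neat1 show no overlap between groups, and Gm26917 and Gm42418 do.

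Of the other long nuclear RNAs, Malat1 was the steadiest member across pools in CPM of total counts. It stood at 12138, 9904, 7992 and 10823 CPM of total counts in βNrf2KO pools 1, 2, 3 and 4, and at 10121, 8569 and 9713 CPM in control pools 1, 2 and 4. In CPM it was higher in βNrf2KO than in the control pool of the same number in all 3 pairs, whereas in CPM of counts outside the mitochondrial genome it was higher in pair 4 and lower in pairs 1 and 2. Its coefficient of variation over the 7 pools was 13.9%, the lowest of the 10, and 23.2%, level with Miat, in CPM of counts outside the mitochondrial genome. Its log2 fold change was -0.34 ± 0.26 with TMM scaling (edgeR, adjusted p = 0.660) and 0.11 ± 0.32 scaled to total counts, so its sign depended on the scaling.

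Miat (ENSMUSG00000097767, chr5:112213228-112229395, minus strand, 6 exon blocks) is a nuclear RNA best known from neural tissue. It measured 1.96, 2.04, 2.27 and 2.43 log2 CPM in the 4 βNrf2KO pools, against 2.16, 2.93 and 2.72 in the 3 control pools. The groups overlapped, and the log2 fold change was -0.46 ± 0.26 (edgeR, adjusted p = 0.590), which became -0.30 without control pool 2 and -0.06 scaled to total counts. The part of neuronal and Schwann cells in this was not tested. Their summed markers were at 80.3 to 134.0 CPM of total counts in βNrf2KO pools and 77.4 to 165 CPM in control pools. All 8 listed genes were counted in every pool. This is the scale on which Miat differed by -0.06, and the sum was not computed with TMM scaling.

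Kcnq1ot1 (ENSMUSG00000101609, chr7:143212155-143296549, minus strand, 1 exon block) is read from the paternal copy of an imprinted region, antisense to Kcnq1, and keeps neighbouring genes such as Cdkn1c silent on that copy. It measured 9.23, 8.47, 8.39 and 8.55 log2 CPM in βNrf2KO pools 1, 2, 3 and 4, against 9.38, 8.20 and 8.12 in control pools 1, 2 and 4. Pools 1 of both genotypes were the highest, and the βNrf2KO pools lay within the range of the control pools. The log2 fold change was 0.01 ± 0.31 (edgeR, adjusted p = 0.993), 0.54 without control pool 1 and -0.22 without βNrf2KO pool 1. Kcnq1, the potassium channel gene on the other strand, shares 121 bases of exon with it and differed by -0.71 ± 0.25 (edgeR, adjusted p = 0.571). Trpm5, a cation channel gene of the same region, differed by 0.71 ± 0.18 (edgeR, adjusted p = 0.571). Of 8 tested genes of the region, 4 were positive and 4 negative with a median of -0.04, and 0 were called.

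A motif of Nrf2 binding, searched as TGACNNNGC on both strands in the 300 bases around the start (250 before, 50 after), was found in 1 of the 4 member promoters that the RefSeq table holds (Snhg11, Miat, Kcnq1ot1 and Malat1) and in 12.4% of all 32851 promoters in it. The match was in Kcnq1ot1, beginning at position -46 from the start (chr7:143296545-143296633, minus strand, GRCm38.p6), where the capitals mark it.
Kcnq1ot1: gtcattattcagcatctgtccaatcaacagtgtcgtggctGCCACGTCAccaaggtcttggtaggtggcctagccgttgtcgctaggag
A match of letters is a description and not a binding site.

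Of the ribosomal DNA rows, Gm26917 had the highest counts of all members. It held 47795, 38845, 31392 and 27866 CPM in βNrf2KO pools 1, 2, 3 and 4, and 40434, 59565 and 49392 CPM in control pools 1, 2 and 4. In total-count CPM it was higher in βNrf2KO in pair 1 and lower in pairs 2 and 4. Its log2 fold change with TMM scaling was -0.92 ± 0.37 (edgeR, unadjusted p = 0.0298, adjusted p = 0.571), and -0.47 without control pool 2. Gm42418 held 1097, 1426, 990 and 968 CPM in βNrf2KO pools and 936, 967 and 1923 CPM in control pools, with a log2 fold change of -0.53 ± 0.21 (edgeR, unadjusted p = 0.0289, adjusted p = 0.571). The 2 rows, which lie 616 bases apart on 1 strand, did not keep a fixed ratio. Ribosomal RNA had been depleted from the libraries. Gm42418 has 1245 of its 1831 bases within Rn18s-rs5, and Gm26917 lies wholly before it. The part of depletion and of the bases shared with AY036118 in these values was not tested. Gm42418 counts per Gm26917 count were 0.0230, 0.0367, 0.0315 and 0.0347 in βNrf2KO pools 1, 2, 3 and 4 and 0.0232, 0.0162 and 0.0389 in control pools 1, 2 and 4 (exact permutation p = 0.571). The range was 2.40-fold, lowest in control pool 2 and highest in control pool 4.

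Of the RNAs of polymerase III, Rpph1 and Rmrp varied most among all members, with coefficients of variation of 59.7% and 48.2% in CPM, and Rn7sk had 33.2%. Rpph1 stood at 3460, 2180, 1461 and 922 CPM in βNrf2KO pools 1, 2, 3 and 4, and at 4944, 3722 and 1145 CPM in control pools 1, 2 and 4. This is a 5.36-fold range, against 3.20-fold for Rmrp and 2.76-fold for Rn7sk. Rmrp stood at 836, 716, 449 and 458 CPM in βNrf2KO pools and 1435, 598 and 529 CPM in control pools. In CPM of total counts control pool 1 alone was high for Rmrp. With TMM scaling control pool 2, at 9.90 log2 CPM, also lay above every βNrf2KO pool (9.67 at most). Rn7sk stood at 8193, 5203, 2965 and 5109 CPM in βNrf2KO pools and 6625, 4023 and 4400 CPM in control pools. On this scale βNrf2KO pools were both the highest and the lowest. With TMM scaling control pool 1 was the highest, at 12.99 log2 CPM against 12.96 in βNrf2KO pool 1.

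In the test of genotype, the groups overlapped for all 3. Rpph1 differed by -1.23 ± 0.67 on the log2 scale (edgeR, adjusted p = 0.587) and Rmrp by -0.93 ± 0.43 (edgeR, adjusted p = 0.571), which became -0.34 without control pool 1. Rn7sk differed by -0.34 ± 0.36 (edgeR, adjusted p = 0.745) with TMM scaling and by 0.10 ± 0.37 scaled to total counts, and with TMM scaling it was -0.71 without βNrf2KO pool 1 and -0.08 without control pool 1. In CPM of total counts Rn7sk was higher in βNrf2KO in all 3 pairs, and in CPM of counts outside the mitochondrial genome it was higher in pair 4 and lower in pairs 1 and 2. With the replicate block the errors were smaller. Rpph1 differed by -0.97 ± 0.25 (edgeR, unadjusted p = 0.00219, adjusted p = 0.242) and Rmrp by -0.68 ± 0.19 (unadjusted p = 0.00441, adjusted p = 0.269), and neither was called. Parp2, which shares the start region of Rpph1, differed by -0.17 ± 0.21 (edgeR, adjusted p = 0.782).

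**Figure D4:**
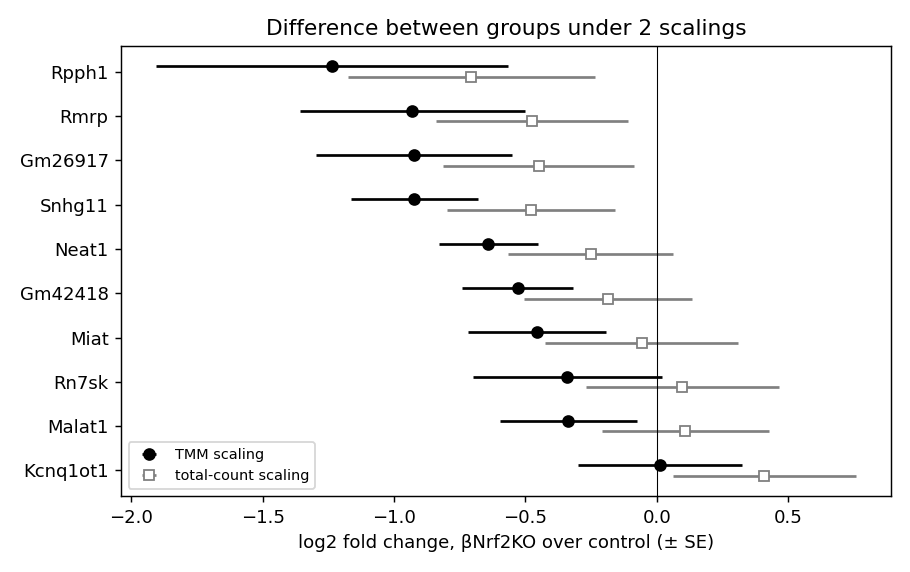
Log2 fold change of βNrf2KO over control (± SE of the edgeR fit) for each RNA, with TMM scaling (filled circles) and total-count scaling (open squares). Total-count scaling moves every value up, and Malat1 and Rn7sk cross 0, from -0.34 to 0.11 and from -0.34 to 0.10.

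Rpph1 followed the mitochondrial share of the pools across both genotypes. Over 7 pools the TMM-scaled log2 CPM of Rpph1 and the percentage of counts from the mitochondrial genome had a Pearson r of 0.954 (exact permutation p = 0.000794, adjusted p = 0.00794 over 10 members) and a Spearman rho of 0.964 (exact permutation p = 0.00278, adjusted p = 0.0278). Without control pools 1 and 2, the pools farthest from the median share, r was 0.979 (n = 5). Scaled to total counts, where a larger mitochondrial share lowers all other values, r was still 0.887. Rmrp had r = 0.851 (exact permutation p = 0.0202, adjusted p = 0.0506) and rho = 0.929 (exact permutation p = 0.00675, adjusted p = 0.0337), and r = 0.887 without these pools and 0.569 on the total-count scale. Gm26917 and Malat1 had r = 0.885 and 0.879 (adjusted p = 0.0318 each by exact permutation), falling to 0.684 and 0.623 without these pools. On the total-count scale these 2 values were 0.638 and -0.236, so the relation of Malat1 turned with the scaling. For Rn7sk r was 0.697 (exact permutation p = 0.0833), with 0.586 without these pools and 0.127 on the total-count scale. For Gm42418, Neat1, Miat, Snhg11 and Kcnq1ot1 r lay between 0.215 and 0.479, with adjusted p-values of 0.422 or more by exact permutation. Without control pools 1 and 2 (n = 5) r was -0.580 for Neat1, -0.814 for Miat and -0.714 for Snhg11, and 0.214 for Gm42418 and 0.638 for Kcnq1ot1. On the total-count scale all 5 were negative, between -0.687 (Miat) and -0.179 (Snhg11). Neither genotype has enough pools for a value of its own. The relation was computed for the 10 members only. How common an r of this size is among all tested genes was not tested, so these values do not set the members apart. Rpph1 counts per Rn7sk count were 0.422, 0.419, 0.493 and 0.180 in βNrf2KO pools 1, 2, 3 and 4 and 0.746, 0.925 and 0.260 in control pools 1, 2 and 4 (exact permutation p = 0.229). This ratio needs no scaling, and its lowest values were in the 2 pools numbered 4, where the mitochondrial share was also lowest.

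**Figure D5:**
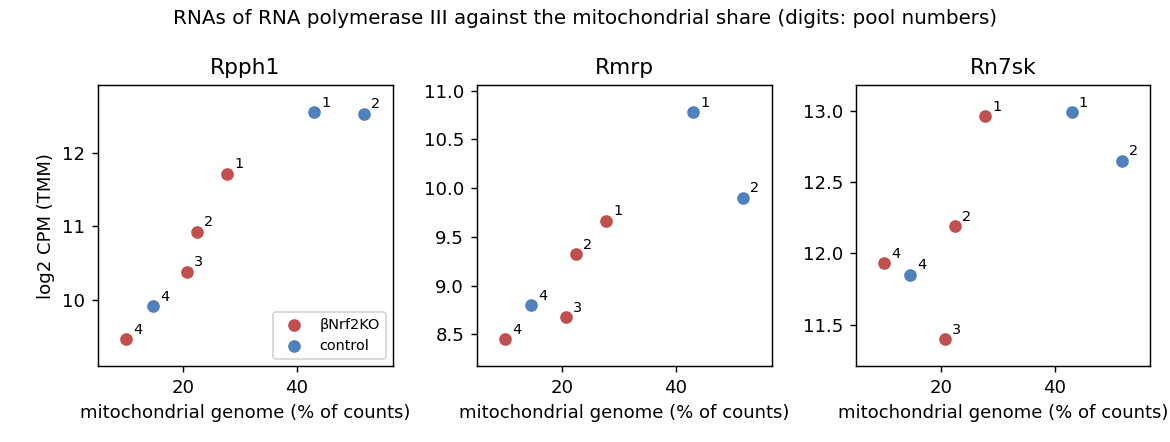
TMM-scaled log2 CPM of Rpph1, Rmrp and Rn7sk against the percentage of counts from the mitochondrial genome, 1 point per pool (βNrf2KO red, control blue, with pool numbers). Rpph1 runs from 9.46 log2 CPM at 10.02% to 12.54 at 51.8%, with a single step out of order between control pools 1 and 2.

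The members were compared by the root mean square difference of their TMM-scaled log2 profiles after each was centred on its mean over the 7 pools. This difference grows with the spread of the profiles compared, so a small value alone does not show that members moved together. The closest were Neat1 and Miat (0.212), Neat1 and Snhg11 (0.233), and Miat and Snhg11 (0.245), followed by Malat1 and Rn7sk (0.283). Over the 7 pools the SDs of Malat1, Miat, Neat1 and Snhg11 themselves were 0.3545, 0.358, 0.417 and 0.577 log2. The adjoining rows Gm26917 and Gm42418 differed by 0.428, and Miat and Rpph1 were farthest apart (1.21). Among 9110 or 9111 other genes, the profile nearest to Malat1 was that of Pabpn1, a nuclear poly(A)-binding protein (0.0683), then those of Sugp1 (0.0694) and the small Maf protein Mafg (0.0754). The nearest to Neat1 were Ifrd1 (0.0745), Slc8a2 (0.123) and Csad (0.131), and to Snhg11 Sgip1 (0.113), Chek1 and Inpp5k (0.156 each). For Rmrp the nearest, Phldb1 (0.212), Noct (0.224) and Aebp1 (0.227), lay farther off, but Rmrp itself also varied more, with an SD of 0.818 log2. The nearest to Miat were Fam189b (0.0913), Traf4 (0.106) and Cers4 (0.110). Gm42418 was nearest to Fam110a (0.0736), Nfil3 (0.125) and Ccdc86 (0.126). The median gene lay between 0.407 and 0.808 from these members.

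The genes of the protein partners had medians near that of all tested genes. Of 11 tested proteins of RNase P and RNase MRP, 7 had positive and 4 negative log2 fold changes, with a median of 0.10 against -0.01 over all tested genes, and 0 were called. Rpp21 and Pop5, subunits of these enzymes, differed by -0.62 ± 0.27 and -0.55 ± 0.26. Of 7 genes of the 7SK particle and P-TEFb, 4 were positive and 3 negative (median 0.10). The 2 with the smallest p were the inhibitor Hexim2 at -0.99 ± 0.38 and the kinase Cdk9 at -0.43 ± 0.24. Hexim2 was low, at -0.42 to 0.28 log2 CPM in βNrf2KO pools and 0.54 to 1.18 in control pools. Of 16 paraspeckle proteins, 12 were positive and 4 negative (median 0.11). The pair with the smallest p was Sfpq, which binds Neat1 (-0.60 ± 0.29), and the RNA-binding protein Tardbp (0.33 ± 0.18). Of 20 nuclear speckle and splicing factors, 8 were positive and 12 negative (median -0.07), with Srsf1 at 0.33 ± 0.17 and the kinase Clk1 at -0.31 ± 0.17. No gene named here from these lists was called (edgeR, adjusted p of 0.571 to 0.585).

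The enzymes that make these RNAs were also compared. Of 21 genes of RNA polymerase III and its factors, 11 were positive and 10 negative (median 0.04), with the factor Brf1 at -0.47 ± 0.24. Of 20 genes of RNA polymerase I and ribosomal RNA processing, 7 were positive and 13 negative (median -0.04), with Polr1c, a subunit shared by polymerases I and III, at -0.61 ± 0.25 and the ribosomal DNA factor Ubtf at -0.32 ± 0.16. Of 29 other long noncoding RNAs tested, 11 were positive and 18 negative (median -0.07), with the imprinted RNA H19 at -0.88 ± 0.32 and Snhg14 at -0.67 ± 0.26. Of 20 other short structural RNAs listed, 16 were found and 8 passed the filter. Of these, 2 were positive and 6 negative (median -0.68), with the Cajal body RNA Scarna2 at -0.89 ± 0.20 and the Y RNA Rny3 at -0.80 ± 0.38. Again 0 members of these lists were called (edgeR, adjusted p = 0.571 for each gene named).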

How the data were processed

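RNA of islets was sequenced after depletion of ribosomal RNA in 7 libraries, each a pool of RNA of 5 animals per the labels' protocols. Each library's file holds the authors' unnormalized gene counts. The authors worked with STAR 2.5.2b, Trimmomatic 0.36, bcl2fastq 2.20, Subread 1.5.2 and its featureCounts, per the submitters' processing notes. How strand and reads with several matches were handled, which matters for repeated and overlapping genes, is not given in the sources used here. Coordinates are those of GRCm38: although the processing notes name a newer build, 44858 (91.4%) of the 49056 IDs also found in GENCODE M21 start and end at the same bases there. The Cre entry was left out of the tests and a combined table was not used. Total counts were 18187382 to 25373105 per pool. No molecular identifiers are named in the sources, so a count is not a number of independent molecules, and the precision rests on the spread between pools.

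Genes were tested with edgeR 4.0.16 in R 4.3.3 (TMM, filterByExpr by group, robust quasi-likelihood fit, two-sided, Benjamini-Hochberg adjustment over all 19893 tested genes, threshold 0.05), a procedure tested on simulated data. Shares were compared by exact permutation over the 35 assignments of pools (scipy 1.17.1), and TPM was computed from counts and exon lengths. Alternatives were other scalings, filters, DESeq2 1.42.0, limma-voom (limma 3.58.1), the pool number as a block, and leaving out each pool. The 2 scalings without TMM were chosen after seeing the data. From each gene list the 2 tested genes with the smallest p were named, except 1 gene that is not reported here, and for 6 members the 3 nearest profiles among tested genes at or above an average of 3 log2 CPM that carry no predicted-gene name. Nfe2l2 and Parp2 were named after their values were seen. The members and lists were chosen with earlier results of these data known. The labels number the pools, and that equal numbers are pairs was inferred from these same data. Deviations from the group means correlated at 0.376, 0.229 and 0.323 across genes in pools numbered 1, 2 and 4. Pools of unlike number ranged from -0.353 to 0.241, and the highest, βNrf2KO pool 3 with control pool 4, exceeded pair 2. These values are not independent, since each group was centred on its own mean. In the block fit βNrf2KO pool 3 has no partner and adds nothing to the difference between genotypes. The exact permutation tests did not use the pairs.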

Additional observations from a re-analysis of the deposited data

How the results depend on the processing

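With the pool number as a replicate block 14 genes were called, with DESeq2 2 and without control pool 4 1, against 0 in the edgeR fit as reported; leaving out each pool gave 0 to 1. No member was called under any of the 17 alternatives run, and the block changed no member's call. The signs of Gm26917, Gm42418, Neat1, Miat, Snhg11, Rmrp and Rpph1 stayed negative under all 17. Scaled to total counts, a setting chosen after seeing the data, they were -0.45, -0.19, -0.25, -0.06, -0.48, -0.47 and -0.71 in that order, against -0.92, -0.53, -0.64, -0.46, -0.92, -0.93 and -1.23 with TMM, and Malat1 (0.11) and Rn7sk (0.10) turned positive; the median of all tested genes there was 0.37. Kcnq1ot1 turned negative without βNrf2KO pool 1 (-0.22), control pool 2 (-0.18) or control pool 4 (-0.21); leaving out single pools gave values between -0.22 and 0.54. The difference in the summed share of the members (-1.39 percentage points) turned on the TPM scale (0.124), was -4.65 of counts outside the mitochondrial genome, -1.03 as the mean of the 3 pairs, -0.0377 without Gm26917 and Gm42418, and -1.98 to -1.01 when each pool was left out. For Gm26917 and Gm42418 the difference (-1.35) was -3.80, -0.358 on the TPM scale and -1.17 in pairs, over -1.83 to -0.875 when each pool was left out. Causes were not tested. Counts limit Miat most, with 71 to 196 per pool.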
